A study of Homo sapiens with 2 samples.

Results

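The BCL2 family guardians and effectors were examined after knockdown of BCLAF1-L in RKO, an established line of human colon cancer cells. The members were 10 of the 19775 genes on the array: the guardians BCL2, BCL2L1, BCL2L2, MCL1 and BCL2A1, the effectors BAX, BAK1 and BOK, and the atypical relatives BCL2L12 and BCL2L13. Every probe set (the group of oligonucleotides that reads a transcript on the array) with one of these symbols as its only annotated gene was taken, which gave 28 of the 54675 probe sets. One array held RNA of cells carrying the sh-BCLAF1-L hairpin (the construct numbered 1 in the series' design) and the other RNA of cells carrying sh-Luci, a hairpin against luciferase. Both hairpins were delivered to RKO cells by retrovirus, the medium was changed after 24 h, and infected cells were selected with puromycin at 2 ug/ml for 72 to 96 h before RNA extraction. With 1 array per group there is no replicate: every value is a single measurement, no p-value is given, and effects of the hairpin, the array and the culture cannot be told apart.

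BCL2 family proteins set the threshold at which a cell commits to apoptosis through its mitochondria. The effectors BAX and BAK1 form pores in the outer mitochondrial membrane that release cytochrome c, the guardians bind and restrain them, and BH3-only proteins respond to stress by occupying the guardians or activating the effectors. BCLAF1, a nuclear RNA-binding protein, received its name as a BCL2-associated transcription factor because it was found as a binding partner of viral and cellular BCL2 proteins.

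BCL2A1 is the only gene of the 10 past 1.2-fold on its brightest probe set, and its promoter is printed here beside that of BAX, which differed little on both of its probe sets, because the 2 differ strongly in CpG content. Each sequence is a RefSeq window of 300 bases, 250 before and 50 after the annotated gene start, on the gene's own strand in build GRCh38.p14. Capitals mark CpG dinucleotides.
BCL2A1 (chr15:79971147-79971446, minus strand): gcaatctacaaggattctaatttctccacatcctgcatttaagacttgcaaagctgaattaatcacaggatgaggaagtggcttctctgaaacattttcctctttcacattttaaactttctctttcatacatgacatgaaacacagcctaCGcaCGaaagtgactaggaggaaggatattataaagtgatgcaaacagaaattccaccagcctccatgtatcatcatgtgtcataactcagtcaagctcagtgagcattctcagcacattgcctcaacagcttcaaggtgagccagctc
BAX (chr19:48954625-48954924, plus strand): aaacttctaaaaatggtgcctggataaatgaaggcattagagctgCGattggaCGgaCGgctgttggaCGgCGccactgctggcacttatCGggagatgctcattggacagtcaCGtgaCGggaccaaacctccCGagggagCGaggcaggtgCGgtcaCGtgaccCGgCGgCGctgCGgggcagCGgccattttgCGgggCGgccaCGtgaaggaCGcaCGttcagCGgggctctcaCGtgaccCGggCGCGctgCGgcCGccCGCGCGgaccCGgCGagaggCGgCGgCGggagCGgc
The BCL2A1 window held 2 CpG dinucleotides and 41.0% G or C, and 11.0% of the 35116 RefSeq promoter windows held fewer CpG. The BAX window held 38 CpG and 67.3% G or C, and 90.1% of windows held fewer. The median window held 14 CpG. The other member windows held 31 CpG for BCL2, 20 and 16 for BCL2L1, 7 for BAK1 and 22 for BOK. Those of BCL2L12 held 8 and 22, and those of BCL2L13 held 14, 31 and 3. BAX was thus the member with the most CpG, and a low count was not particular to BCL2A1.

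Both strands were searched for 6 motifs. The BCL2A1 window held 1 match to the interferon response core GAAANNGAA, read on the opposite strand and starting at base 119 of the printed sequence, and 1 to the TATA motif TATAAA, at base 181. The interferon core occurred in 8.11% of all windows and the TATA motif in 11.5%. The BAX window held 4 matches to the E-box CACGTG, starting at bases 113, 158, 206 and 237, a motif present in 7.26% of windows. Neither window matched GGGNNTTTC (a part of the NF-kB motif, 4.78% of windows), TGANTCA (AP-1, 7.71%) or TGACGTCA (the cyclic AMP response element, 1.85%). Windows were found for 8 of the 10 genes, all but MCL1 and BCL2L2. Among the other member windows, a BCL2L1 window held 2 matches to the TATA motif. A BCL2L12 window held 1 to GGGNNTTTC and a BCL2L13 window 1 to TGANTCA. A match describes these letters only, and no binding or methylation was measured.

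BCLAF1 transcripts were lower in the sh-BCLAF1-L cells on all 6 BCLAF1 probe sets, by 1.43-fold to 2.96-fold. The annotation used does not say which BCLAF1 forms these probe sets read, so they check BCLAF1 as a gene and not the L form alone. The brightest read 945 in sh-BCLAF1-L cells and 2505 in sh-Luci cells. Differences here are log2(intensity + 1), sh-BCLAF1-L minus sh-Luci, and intensities are in arbitrary units. Over all 54675 probe sets the median difference was 0.026, and all 18 probe sets of the hybridisation spike-ins were higher on the sh-BCLAF1-L array, with a median of 0.20. The 3' to 5' signal ratio of ACTB was 3.81 in sh-BCLAF1-L cells and 3.41 in sh-Luci cells, and that of GAPDH was 1.49 in sh-BCLAF1-L cells and 1.38 in sh-Luci cells. The part of these array differences in the results was not tested. Of 7 epithelial markers 5 passed the brightness filter described below, with EPCAM at 472 in sh-BCLAF1-L cells and 477 in sh-Luci cells, while CDH1 and KRT19 lay below it. KRT18, a keratin of simple epithelia, read 674 in sh-BCLAF1-L cells and 979 in sh-Luci cells on its single probe set above the filter (-0.54). KRT8 (0.02), VIL1 (0.14) and CDX2 (0.20) differed the other way, as did KRT19 (0.39) and CDH1 (0.52) below the filter. The 7 epithelial markers summed to 1485 in sh-BCLAF1-L cells and 1752 in sh-Luci cells. The lower sum came from KRT18, since of the others only EPCAM (-0.02) was lower. Among markers of other lineages, 3 of 6 measured blood cell markers, 4 of 6 fibroblast markers and 2 of 5 endothelial markers passed. CD14, LYZ, PTPRC, COL3A1, PDGFRB, CDH5, KDR and TEK did not. Here and below, a listed gene was counted as measured only if a probe set carried its symbol alone. Genes read only by probe sets with several symbols were left out. The highest of each list were HBB (226 in sh-BCLAF1-L cells, 196 in sh-Luci cells), COL1A1 (397 in sh-BCLAF1-L cells, 355 in sh-Luci cells) and VWF (194 in sh-BCLAF1-L cells, 177 in sh-Luci cells). All read above the epithelial marker KRT8 (98 in sh-BCLAF1-L cells, 96 in sh-Luci cells). CD3E differed by -0.27. Summed over the measured markers, the blood cell list read 529 in sh-BCLAF1-L cells and 510.1 in sh-Luci cells, the fibroblast list 744 in sh-BCLAF1-L cells and 674 in sh-Luci cells, and the endothelial list 395 in sh-BCLAF1-L cells and 383 in sh-Luci cells.

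Few of the members differed by more than a small amount. A probe set passed the filter when its mean log2 value over both arrays was at or above the 40th percentile of the whole array, an intensity of 63.7, and a gene took the value of its brightest probe set. All 10 genes and 24 of the 28 probe sets passed. On the brightest probe set, 1 gene (BCL2A1) was at least 1.2-fold lower in sh-BCLAF1-L cells and 0 were at least 1.2-fold higher. Among all 14507 genes above the filter, 4.26% were lower and 6.86% higher by that fold, and whether 1 in 10 genes exceeds this background was not tested. The median difference of the 10 genes was -0.10, beside 0.019 for all genes above the filter. On the brightest probe set, 8 of the 10 had a negative difference, beside 45.0% of all genes, and these 8 include MCL1 at -0.0011. Over the members' 24 probe sets above the filter, 14 had a negative difference (58.3%), beside 46.1% of all probe sets above it. No member probe set reached 1.5-fold. Of all 26452 probe sets above the filter, 61 were lower and 123 higher by that fold. On the brightest probe set, 0.2% of all genes above the filter were lower and 0.434% higher by it.

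**Figure D1:**
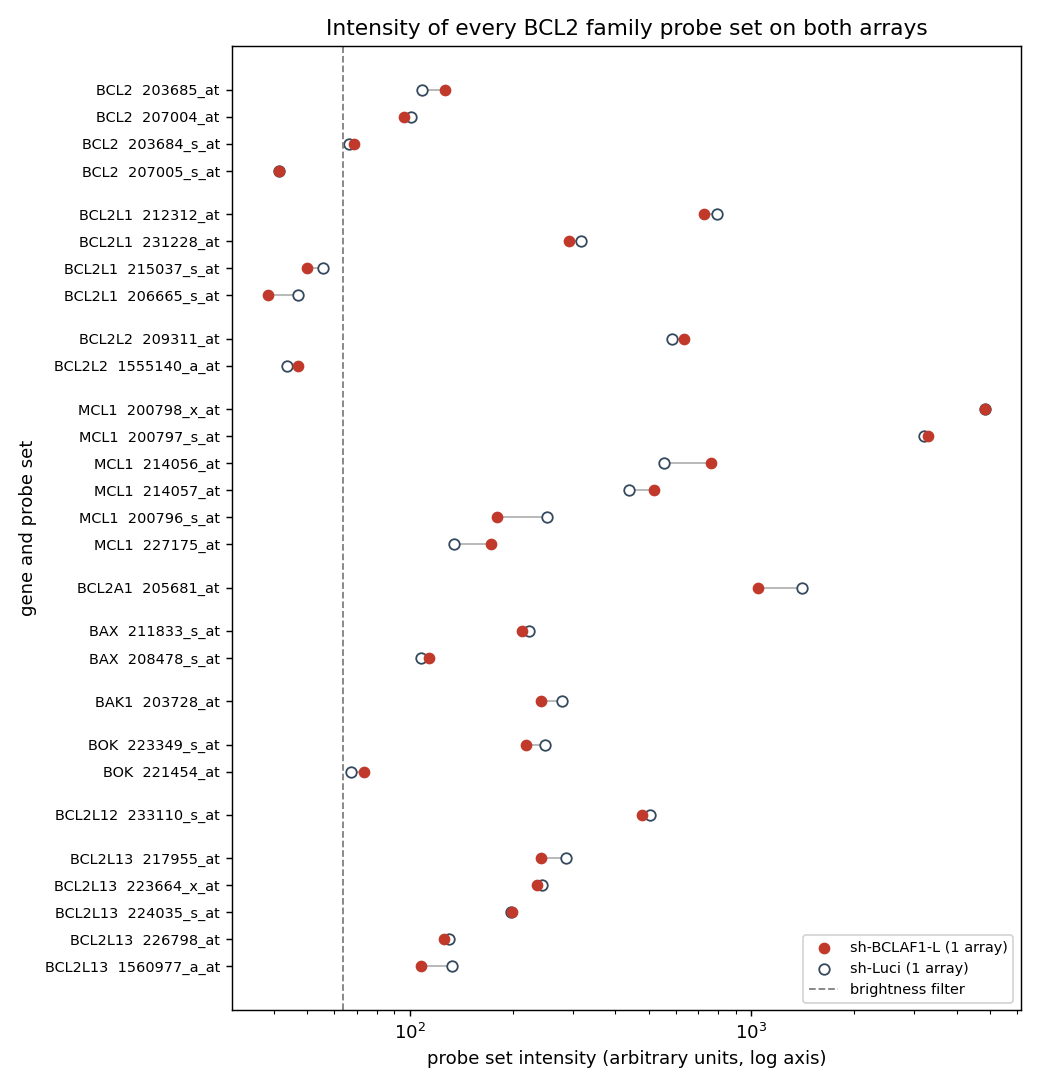
Intensity of each of the 28 probe sets (rows, grouped by gene) on the sh-BCLAF1-L array (filled points) and the sh-Luci array (open points), on a log axis in arbitrary units. The dashed line is the filter at 63.7. The points of a row lie close together for most probe sets, with the widest gaps at BCL2A1 and at MCL1 probe sets.

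Among the guardians, BCL2A1 stood lower and the others were split. BCL2A1, a short-lived guardian whose gene is a known NF-kB target in lymphoid cells, read 1048 in sh-BCLAF1-L cells and 1409.6 in sh-Luci cells on its single probe set, 205681_at. This was a difference of -0.43, or 1.34-fold lower in the knockdown. Of the 14507 genes above the filter, 125 had a lower difference, or 0.862%. Among 4 equal brightness classes of the probe sets above the filter it fell in the brightest, where the central 95% of differences lay between -0.27 and 0.31 and 2.84% were at least 1.2-fold lower. No second probe set of BCL2A1 was available to check it.

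BCL2, the founding member and a guardian of mitochondria and endoplasmic reticulum, was dim on all 4 of its probe sets. Its brightest, 203685_at, read 127 in sh-BCLAF1-L cells and 108 in sh-Luci cells, a difference of 0.23. The probe set 207004_at read 96.3 in sh-BCLAF1-L cells and 101 in sh-Luci cells. The third, 203684_s_at, read 68.6 in sh-BCLAF1-L cells and 66.4 in sh-Luci cells. The fourth, 207005_s_at, lay below the filter at 41.2 in sh-BCLAF1-L cells and 41.3 in sh-Luci cells. The higher value was thus seen on 203685_at, and the others differed by -0.06 to 0.05.

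BCL2L1, which encodes BCL-XL, had a negative difference on each of its 4 probe sets. The brightest, 212312_at, read 727 in sh-BCLAF1-L cells and 796 in sh-Luci cells (-0.13). The probe set 231228_at read 293 in sh-BCLAF1-L cells and 316 in sh-Luci cells (-0.11). The remaining 2, 215037_s_at and 206665_s_at, lay below the filter and differed by -0.15 and -0.28. BCL2L1 was the member whose probe sets above the filter lay closest together, 0.016 apart, and its brightest lay within 1.09-fold of the control. Which probe sets distinguish the long anti-apoptotic from the short pro-apoptotic splice form could not be read from the annotation used.

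BCL2L2 (BCL-W, a guardian known for its role in spermatogenesis in mice) read 636 in sh-BCLAF1-L cells and 586 in sh-Luci cells on 209311_at, a difference of 0.12. Its other probe set, 1555140_a_at, lay below the filter at 47.0 in sh-BCLAF1-L cells and 43.8 in sh-Luci cells, a difference of 0.10. Both were slightly higher in the knockdown, by less than 1.2-fold.

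MCL1, a guardian with a rapidly degraded protein that many tumour cells depend on, had probe sets that differed in opposite directions. The brightest, 200798_x_at, read 4821 in sh-BCLAF1-L cells and 4825 in sh-Luci cells, a difference of -0.0011. The next, 200797_s_at, read 3301 in sh-BCLAF1-L cells and 3199 in sh-Luci cells (0.04). These 2 were level within 1.03-fold.

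Of the 4 dimmer MCL1 probe sets, 3 were higher and 1 lower in the knockdown. The probe set 214056_at read 761 in sh-BCLAF1-L cells and 554 in sh-Luci cells, 1.37-fold higher (0.46). The probe set 227175_at read 172 in sh-BCLAF1-L cells and 135 in sh-Luci cells, 1.28-fold higher (0.35), and 214057_at read 519 in sh-BCLAF1-L cells and 437 in sh-Luci cells, 1.19-fold higher (0.25). In the opposite direction, 200796_s_at read 180 in sh-BCLAF1-L cells and 252 in sh-Luci cells, 1.40-fold lower (-0.49), and 0.571% of the 26452 probe sets above the filter were lower still. The differences of 214056_at and 200796_s_at lay outside the central 95% of probe sets in their own brightness classes (-0.27 to 0.31 and -0.32 to 0.35), while that of 227175_at lay inside (-0.35 to 0.38).

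The spread between MCL1 probe sets was wide for the array. The highest and lowest differences of MCL1 were 0.95 apart. Among the 134 genes with 6 probe sets above the filter, the median of this distance was 0.37, and 4 genes including MCL1, or 2.99%, had one as large. In 10 of these 134 genes, or 7.46%, probe sets passed 1.2-fold in both directions, as those of MCL1 did. Among the 504 genes with 5 or more such probe sets, 16 had a distance as large as that of MCL1, or 3.17%. The transcript regions and splice forms read by each probe set are not part of the annotation used. With 1 array per group as well, a change in total MCL1 mRNA, a change in some of its forms and no change cannot be told apart.

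**Figure D2:**
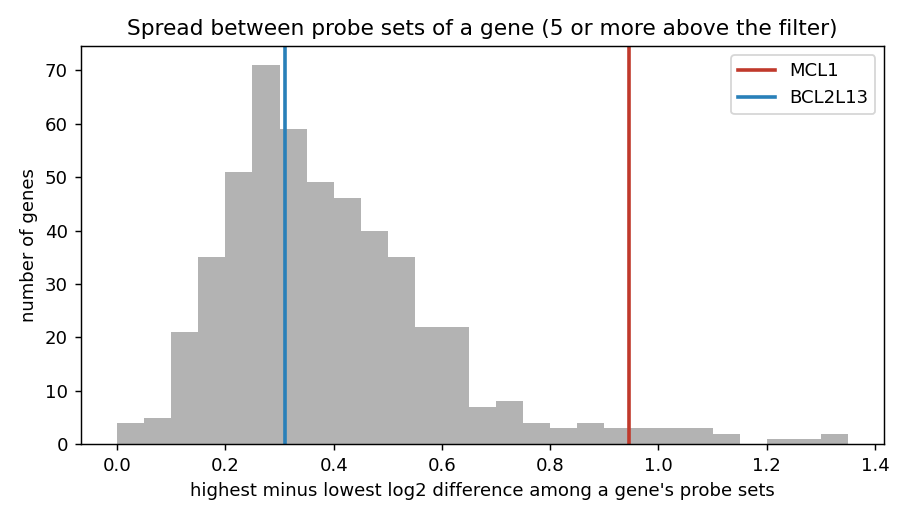
Histogram of the distance between the highest and lowest log2 difference (sh-BCLAF1-L minus sh-Luci) among the probe sets of a gene, for the 504 genes with 5 or more probe sets above the filter. MCL1 lies in the upper tail at 0.95, and BCL2L13, the other member with that many probe sets, lies at 0.31 in the body of the distribution.

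Among the effectors, all 3 brightest probe sets were lower in the knockdown, none by 1.2-fold, and the second probe sets of 2 genes went the other way. BAK1, which resides on the mitochondrial outer membrane, read 241 in sh-BCLAF1-L cells and 278 in sh-Luci cells on its single probe set, 203728_at, a difference of -0.20. BAX, which moves from the cytosol to mitochondria on activation, read 214 in sh-BCLAF1-L cells and 224 in sh-Luci cells on 211833_s_at (-0.07). Its other probe set, 208478_s_at, read 114 in sh-BCLAF1-L cells and 108 in sh-Luci cells (0.08), so BAX had no shared direction.

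BOK, an effector that can act without BAX and BAK1, read 219 in sh-BCLAF1-L cells and 249 in sh-Luci cells on 223349_s_at, a difference of -0.18. Its dimmer probe set, 221454_at, read 73.4 in sh-BCLAF1-L cells and 67.1 in sh-Luci cells, a difference of 0.13. Leaving out probe sets with names ending in _s_at or _x_at, which may hybridise with more than 1 transcript, BOK differed by 0.13 and BAX had no value. The median difference of the 3 effectors was -0.18 on the brightest probe sets and -0.07 over their 5 probe sets above the filter. For the 5 guardians these medians were -0.0011 over genes and 0.04 over 13 probe sets.

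The atypical relatives had small negative differences on most probe sets. BCL2L12, a nuclear and cytoplasmic relative reported to inhibit effector caspases and p53 in glioma cells, read 478 in sh-BCLAF1-L cells and 504 in sh-Luci cells on 233110_s_at (-0.08). BCL2L13 (BCL-Rambo), a mitochondrial membrane protein that serves as a mitophagy receptor, had 5 probe sets above the filter, of which 4 were lower. The brightest, 217955_at, read 242 in sh-BCLAF1-L cells and 286 in sh-Luci cells, 1.18-fold lower (-0.24).

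The dimmest BCL2L13 probe set, 1560977_a_at, read 108 in sh-BCLAF1-L cells and 133 in sh-Luci cells, 1.23-fold lower (-0.30), inside the central 95% of its brightness class (-0.35 to 0.38). The remaining 3 lay near 0. Of these, 223664_x_at read 235 in sh-BCLAF1-L cells and 243 in sh-Luci cells, 226798_at read 126 in sh-BCLAF1-L cells and 129.97 in sh-Luci cells, and 224035_s_at read 199.6 in sh-BCLAF1-L cells and 198 in sh-Luci cells. The BCL2L13 difference thus rested on 2 of its 5 probe sets, and the median over the 5 was -0.05.

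**Figure D3:**
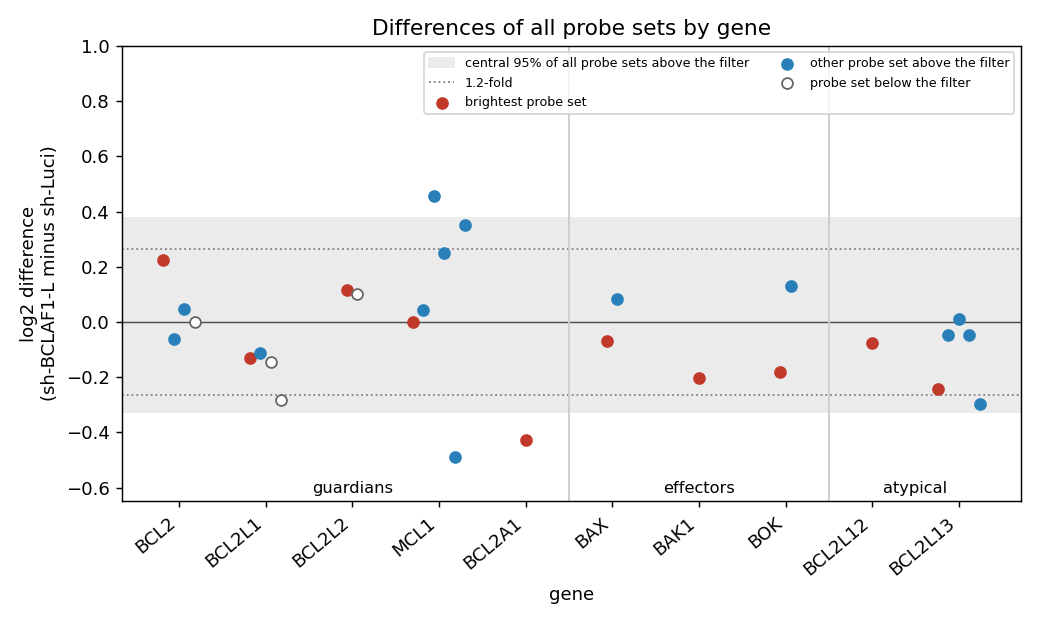
Log2 difference (sh-BCLAF1-L minus sh-Luci) of each of the 28 probe sets by gene, with the brightest probe set of a gene in red, others above the filter in blue and those below it as open points. The grey band holds the central 95% of the 26452 probe sets above the filter and the dotted lines mark 1.2-fold. BCL2A1 and 1 MCL1 probe set lie below the band, and 1 MCL1 probe set lies above it.

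Over probe sets, 3 of the 24 members' probe sets above the filter were at least 1.2-fold lower (12.5%) and 2 at least 1.2-fold higher (8.33%), beside 5.05% lower and 7.26% higher over all 26452 probe sets above the filter. The 3 lower ones belonged to MCL1, BCL2A1 and BCL2L13, and both higher ones to MCL1. Without MCL1, 2 of 18 were lower and 0 higher. The SD of the differences was 0.22 over the 24 probe sets, 0.16 without MCL1, and 0.18 over all probe sets above the filter. The pooled SD between probe sets that share a gene was 0.16 over 6752 genes. That SD covers probe sets on this pair of arrays and not cultures or infections.

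The genes that act with the BCL2 family showed differences of similar size. Of all genes above the filter, 4.26% were at least 1.2-fold lower and 6.86% higher, the background for the list counts here and below. Of 8 listed BH3-only genes, 7 were measured. On their brightest probe sets 0 of 7 passed 1.2-fold, with a median of -0.09 and values between -0.25 (BAD) and 0.17 (HRK). Dimmer probe sets above the filter passed it for BAD (-0.28, with another at 0.16) and HRK (0.34). Of 8 listed genes of the apoptosome and caspase arm, 6 were measured in the sense given above, and CASP9 was the only caspase among them. Of these 6, 0 passed on the brightest probe set, with a median of -0.05. Values lay between -0.21 (CYCS, cytochrome c) and 0.23 (APAF1, the apoptosome scaffold). The 7 probe sets of the caspase inhibitor XIAP ran from -0.10 to 0.30. Of 9 mitochondrial and endoplasmic reticulum partners, 1 was at least 1.2-fold higher and 0 were lower on the brightest probe set, with a median of 0.016. Whether 1 of 9 exceeds the share of all genes was not tested. The gene past 1.2-fold was ITPR1, an IP3-gated calcium channel of the endoplasmic reticulum that BCL2 binds. It read 340.1 in sh-BCLAF1-L cells and 263 in sh-Luci cells, 1.29-fold higher (0.37), and its 3 probe sets above the filter were all higher, by 0.19 to 0.37. The related ITPR2 and ITPR3 differed by 0.05 and -0.09 on their brightest probe sets. Their probe sets above the filter did not share a direction, from -0.21 to 0.05 for ITPR2 and from -0.14 to 0.20 for ITPR3. VDAC3, a channel of the outer mitochondrial membrane, differed by -0.06 on its brightest probe set and by as much as 0.51 on a dimmer one.

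The genes that control MCL1 protein turnover, in which HUWE1 and FBXW7 mark the protein for degradation and USP9X spares it, did not pass 1.2-fold (0 of 6, median 0.0052, from -0.10 for BTRC to 0.11 for GSK3B). The NF-kB factors and feedback genes did not pass it either (0 of 7 measured, median -0.022), with NFKB1 at -0.22, NFKB2 at -0.21 and REL at 0.22. The 4 probe sets of REL above the filter did not share a direction and ran from -0.21 to 0.22. Of 3 further relatives, BCL2L10 lay below the filter, and BCL2L14 and BCL2L15 differed by 0.10 and -0.05.

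**Figure D4:**
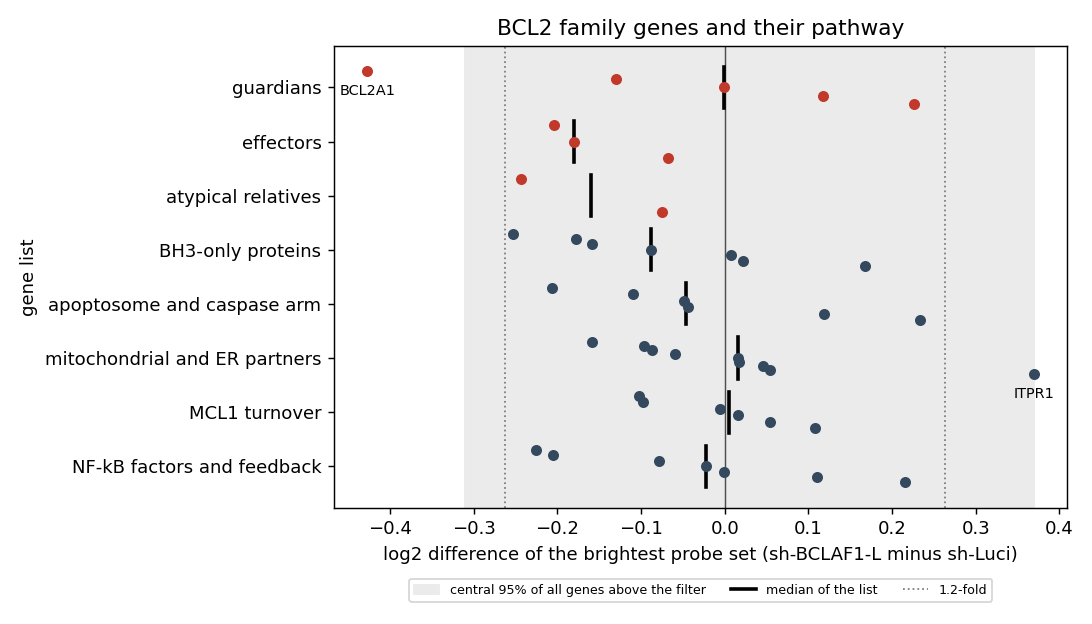
Log2 difference (sh-BCLAF1-L minus sh-Luci) of each gene's brightest probe set in 8 gene lists, for genes above the filter, with members in red and other genes in dark blue. The black bars are list medians, the grey band holds the central 95% of the 14507 genes above the filter, and the dotted lines mark 1.2-fold. BCL2A1 and ITPR1 are the genes past 1.2-fold, and the medians of the 8 lists lie between -0.18 and 0.016.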

How the data were processed

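RNA of 2 RKO cultures was measured on 1 Affymetrix array each, labelled as biotinylated cRNA by a 3' priming kit, per the labels' protocols. The deposited table holds an intensity per probe set on a linear scale. The submitters' processing notes name RMA, which subtracts background, equalises the arrays' distributions and summarises probes, and its version, final scaling and any genome build are not given in the sources used. Equalising distributions could remove a shift shared by most transcripts, and remaining background compresses differences of dim probe sets. The design assumed either scale and fixed log2(value + 1) for linear values.

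Of 54675 probe sets, 41097 had 1 gene symbol, 1801 several and 11777 none in the platform annotation. Symbols were updated by Entrez identifier through a RefSeq table of GRCh38.p14, which matched 41043. The filter was the 40th percentile and the fold 1.2. Alternatives were a pseudocount of 32, no filter, the 60th percentile, subtraction of the median or of a loess curve (span 0.3), no _s_at or _x_at probe sets, the median over probe sets, and folds of 1.3 and 1.5. Named were every member and BCLAF1 probe set and, per pathway list, up to 4 genes past 1.2-fold; other genes named as list ends, relatives or cell type markers were chosen beside this rule, some after their values were seen. The members and lists were chosen with earlier results of these data known. Precision is limited by the number of arrays. The code (Python 3.11.15, pandas 2.3.3, statsmodels 0.14.6) was tested on simulated data.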

Additional observations from a re-analysis of the deposited data

How the results depend on the processing

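No paired analysis was possible because only 1 array was measured per hairpin, which also leaves no array to omit. The count of members at least 1.2-fold lower, 1 in the values reported, was 2 after subtraction of the median difference and 0 at 1.5-fold. BCL2L13 joined BCL2A1 after that subtraction by moving from -0.24 to -0.27. The count of members higher, 0 as reported, was 1 without _s_at and _x_at probe sets, where MCL1 was read by 214056_at (0.46) and 8 genes had a value. Member probe sets lower numbered 0 and higher 0 at 1.5-fold, and higher 1 at 1.3-fold. Except at 1.5-fold, the share over all genes or probe sets was not computed under these settings, so these changed counts have no background beside them. BCL2A1 was the only gene called in the values reported, so only its direction could be checked. It stayed between -0.45 and -0.42. It has a single probe set, so settings that choose among probe sets could not move it. Among the values of single genes under the alternatives, 5 turned their sign, for MCL1, BOK and BAX. Of 48 values of single genes under the alternatives, 44 moved by less than the within-gene SD of 0.16. The other 4 were MCL1 and BOK (0.13) without _s_at and _x_at probe sets, and BCL2 (0.023) and BCL2L13 (-0.05) with the median over probe sets. The guardian median ranged from -0.027 to 0.12 and took either sign, the effector median from -0.21 to -0.026 and the median of all members from -0.13 to -0.0063. Dim probe sets vary more: below the filter 30.5% of probe sets passed 1.2-fold.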

Other observations

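A further probe set, 201544_x_at, carries the symbols of BCL2L2, PABPN1 and their read-through gene and entered no comparison. It read 2401 in sh-BCLAF1-L cells and 2455 in sh-Luci cells, a difference of -0.03.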
